A study of Homo sapiens with 2 samples.

Results

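The regions described here are 3 blocks of the human genome (build hg38) that hold the centromeres of chromosomes 1, 9 and 16 and the ground of their large constitutive heterochromatin: chr1:121571889-143299517, chr9:43139881-60832661 and chr16:36000000-46400000. A peak was a member when it lay fully inside a block, so the choice rested on position alone and on no measured value. Of the 4015 peaks of the vector library, 444 were members (11.1%, 95% Wilson interval 10.1 to 12.1%). Of the 8928 peaks of the APOC2 library, 559 were members (6.26%, 5.78 to 6.78%). Chromosome 1 held 259 vector and 320 APOC2 peaks, chromosome 9 held 121 and 160, and chromosome 16 held 64 and 79. No peak of either library crossed the edge of a block.

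The libraries came from ChIP-seq with an antibody to PHF8 in RKO, a cell line from a human colon carcinoma. Cells were transfected with a vector for 1 library and, for the other, with a plasmid that overexpresses APOC2, the gene of an apolipoprotein that activates lipoprotein lipase. The stated aim was to find PHF8 targets under the control of APOC2. The files used here hold peaks only, so the levels of APOC2 and of PHF8 could not be checked. With 1 library for each condition there was no replicate, so no difference below could be set against a spread between replicates, and each describes these 2 libraries only.

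Constitutive heterochromatin packs the tandem repeats around centromeres. Alpha satellite arrays lie at the centromere itself, and on chromosomes 1, 9 and 16 long arrays of other satellites follow on the long arm, where histones carry repressive lysine methylation and few genes lie. PHF8 is a demethylase of the JmjC family that removes repressive methyl marks from histone tails, while its PHD finger binds a methyl mark of active promoters. The reference build fills centromeres with modelled repeat arrays and stands runs of unknown bases in for much of the remaining heterochromatin, and reads from repeats can match many copies. No histone mark was measured in these libraries, so the name heterochromatin rests on position only. No genome was used here, so neither peak sequences nor the satellite class of a peak are given.

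RefSeq genes (GRCh38.p14) served as position marks. On chromosome 1 the block ran from the end of EMBP1, a transcribed pseudogene, to LOC101929814, a long non-coding RNA gene, with no annotated gene between them. On chromosome 9 it ran from LOC102724904 to CNTNAP3P4, both pseudogenes, again with no gene inside. The chromosome 16 block lay between the pseudogenes PPP1R1AP2 and ANKRD26P1 and held 1 annotated gene, LOC101929923 (chr16:36101116-36102205), on which no peak of either library lay.

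The peaks lay at the borders of the blocks and left the middle empty. On chromosome 1 there was no peak of either library over 18.0 Mb, from 125184206 to 143184618. On chromosome 9 the empty stretch was 15.1 Mb, from 45473674 to 60558657, and on chromosome 16 it was 8.11 Mb, from 38280347 to 46386295. The members thus formed 6 groups, a near side (lower coordinates) and a far side (higher coordinates) of each empty stretch, and none lay in between. In bins of 1 Mb, 5 of the bins on chromosome 1, 4 on chromosome 9 and 4 on chromosome 16 held any peak, and they were the same bins in both libraries. Whether the empty stretches are runs of unknown bases was not examined here.

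On the near side of the empty stretch, peaks were spread over Mb. On chromosome 1 this side held 223 vector and 284 APOC2 peaks over 3.44 Mb, or 64.8 and 82.5 peaks per Mb, with a median gap between neighbours of 6.82 kb and 5.43 kb. On chromosome 9 it held 84 and 112 peaks over 2.15 Mb (39.0 and 52.0 per Mb), and on chromosome 16 it held 58 and 73 peaks over 2.16 and 2.19 Mb (26.8 and 33.3 per Mb). The densest 1 Mb bin of all was the third of chromosome 1, with 80 vector and 110 APOC2 peaks. Peaks were not evenly spread over the near sides. On chromosome 1, 659.6 kb without a vector peak and 669.0 kb without an APOC2 peak separated a small first cluster from the main field. On chromosome 9 the first 1 Mb bin held 65 vector and 80 APOC2 peaks, the second 16 and 26, and the third 3 and 6.

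The far side was narrow and dense. On chromosome 1 it held 36 peaks in each library within 89.6 kb, or 402 per Mb, and these peaks covered 54.4% of that span in the vector library and 55.5% in the APOC2 library. On the near side of the same chromosome the peaks covered 2.23% and 2.81%. On chromosome 9 the far side held 37 vector peaks within 125.7 kb and 48 APOC2 peaks within 122.4 kb (294 and 392 per Mb), with 18.6% and 23.9% of the span covered. On chromosome 16 it held 6 peaks in each library, within 12.0 kb and 13.4 kb. That group reached the end of the block, and the next peak outside began 91 bp beyond it in the vector library and 33 bp beyond it in the APOC2 library. The edge on chromosome 16 therefore lay inside a run of peaks. On the other 5 edges the next peak outside was at least 571 kb away.

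**Figure D1:**
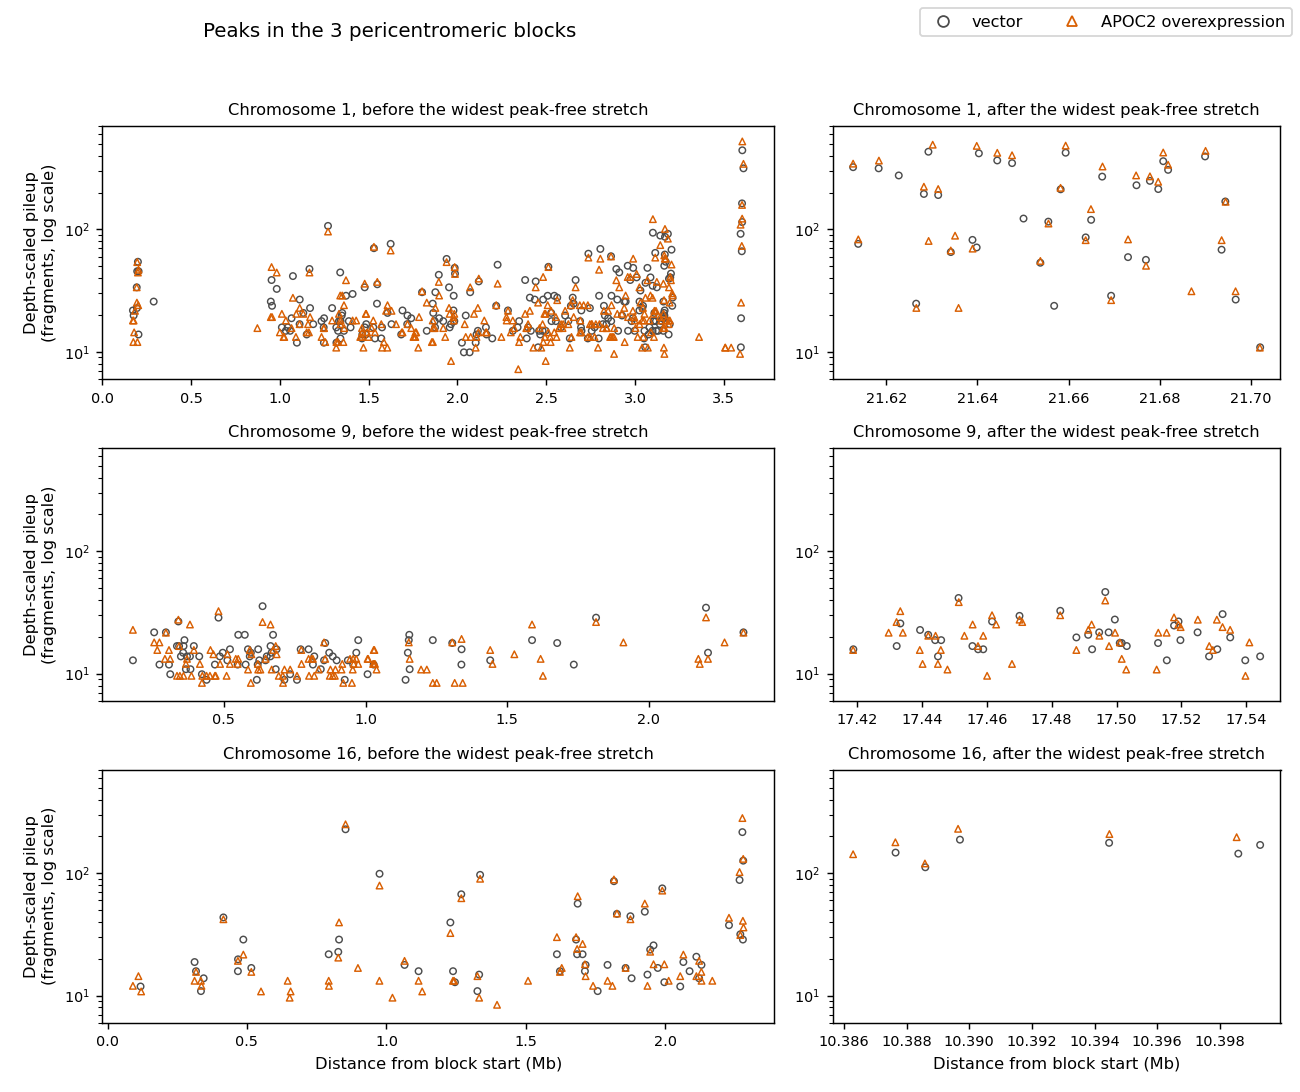
Depth-scaled pileup (fragments, log scale) of each peak against its distance from the start of its block (Mb), for vector (circles) and APOC2 (triangles), with 1 row for each chromosome and 1 column for each side of the widest peak-free stretch. Both sides of chromosomes 1 and 16 reach pileups above 100, while no peak of chromosome 9 exceeds 46.5. The highest values of chromosomes 1 and 16 are on the near side in both libraries, 443 and 229 for vector and 524 and 282 for APOC2.

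The summit pileup, the number of fragments stacked at the top of a peak, was low for most members. Its median was 18.8 fragments in the vector library (95% order-statistic interval 17.8 to 20.8) and 14 in the APOC2 library (14 to 15). These values are in units of different depth. Vector pileups were whole multiples of 0.98953, and 66.1% of the backgrounds above 1.5 in the APOC2 table lay on steps of 0.83248 fragments. The vector table was therefore taken as scaled to its control, and the control of the other table as scaled to the APOC2 library. Under a common control, the relative depth of the APOC2 library was 0.824. Dividing the APOC2 pileups by their step gave a depth-scaled median of 16.8 (16.8 to 18.0). The median fold enrichment over the local background was 8.91 (8.43 to 9.41) in the vector library and 7.64 (7.19 to 7.74) with APOC2, and the median length was 310.5 bp (303 to 323) and 300 bp (291 to 318).

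On chromosomes 1 and 16, pileup and length differed more between the sides of the block than between the libraries. On the far side of chromosome 1 the median pileup was 180 (76.2 to 270) in the vector library and 131 (68 to 230) with APOC2, against 19.8 (18.8 to 21.8) and 15 (14 to 16) on its near side. The peaks there were also longer, with a median of 1010 bp (670 to 1453) and 842 bp (661 to 1311) against 283 and 278 bp. On chromosome 9 the far side had a median pileup of 18.8 and 17.5 and the near side 13.9 and 10, and the highest pileup of the block was 46.5 in the vector library and 33 with APOC2. On chromosome 16 the 6 far-side peaks had a median pileup of 159 (112 to 188) and 157 (100 to 192), against 20.3 (16.8 to 25.7) and 14 (12 to 17) before the stretch. These pileups are as listed, in units of different depth. Depth-scaled, the APOC2 medians on the far sides of chromosomes 1, 9 and 16 were 157, 21.0 and 188. On the near sides they were 18.0, 12.0 and 16.8.

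The local background that the peak caller set against each peak was recovered from pileup and fold enrichment, since the fold enrichment is (pileup + 1) / (background + 1). It is given here in fragments of the control library. Most members stood at or near the lowest background of their library, 0.997 control fragments for vector and 0.971 for APOC2. A background of at most 1 control fragment was found under 74.1% of vector members (69.8 to 78.0%) and 75.8% of APOC2 members (72.1 to 79.2%). The values do not show whether the local control was lower still. In the other gene-free intervals of at least 1 Mb, with 1977 vector and 2520 APOC2 peaks, the share was 86.3% (84.7 to 87.7%) and 87.2% (85.9 to 88.5%). Among the remaining peaks, 1594 and 5849, it was 9.79% (8.42 to 11.3%) and 5.62% (5.06 to 6.25%). The blocks thus resembled the other gene-free intervals far more than the rest of the genome.

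The members with a high background all lay close to an empty stretch. A background above 10 control fragments was found under 33 vector and 34 APOC2 members, and each of these was within 100 kb of the stretch. Beyond 100 kb, the highest background among 359 vector members was 7 control fragments, and among 461 APOC2 members it was 6. Within 100 kb, the 85 vector members had a median pileup of 65.3 (28.7 to 115) and a median length of 663 bp (462 to 789), and the 98 APOC2 members had 31 (22 to 68) and 624.5 bp (468 to 705). Beyond it the medians were 17.8 (16.8 to 18.8) and 296 bp in the vector and 13 (13 to 14) and 280 bp in the APOC2 library. Depth-scaled, the APOC2 median pileups were 37.2 within 100 kb and 15.6 beyond it. When only the members beyond 100 kb were counted, 86.4% (82.4 to 89.5%) and 86.6% (83.1 to 89.4%) had a background of at most 1 control fragment, close to the other gene-free intervals.

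High pileups in this zone did not go with a high fold enrichment everywhere. The far side of chromosome 1 had a median background of 12.5 control fragments (8 to 27) in the vector library and 11 (8 to 26) with APOC2, and a median fold enrichment of 10.2 (7.67 to 12.5) and 11.04 (7.14 to 12.8). On the far side of chromosome 16 the median background was 68 (37 to 80) and 65.5 (36 to 76), and the median fold enrichment only 2.38 (2.12 to 2.97) and 2.91 (2.39 to 3.27). The 6 peaks of each library there had a median pileup of 159 and 157, against 180 and 131 on the far side of chromosome 1. Their highest pileups, 188 and 192, were below the 431 and 410 of that side. They stood over a control that was itself stacked there. Chromosome 9 had neither such pileups nor such a control, with no background above 6 control fragments in the vector library and 7 with APOC2.

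**Figure D2:**
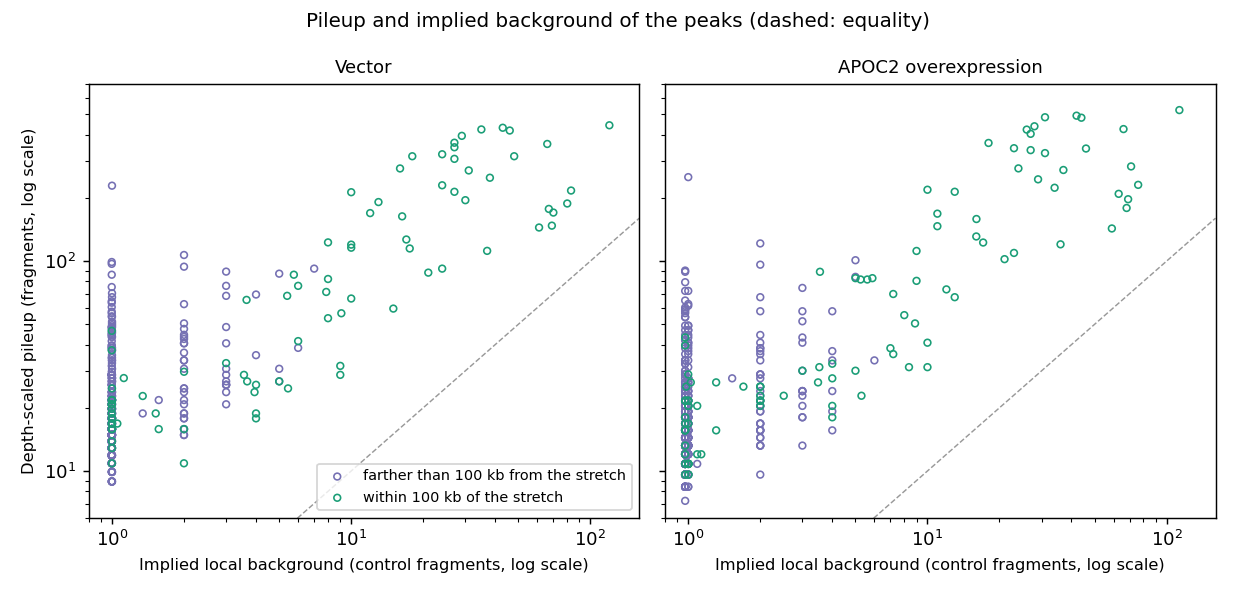
Depth-scaled pileup against implied local background (control fragments), both on log scales, for each member in the vector (left) and APOC2 library (right), with members within 100 kb of the widest peak-free stretch in green and the others in violet. Points above a background of 10 are all green, and the violet points stay at or below 7 in the vector library and 6 with APOC2.

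The highest pileups of the blocks reached the highest values of the whole tables, 443.31 in the vector library and 436 with APOC2. Both are what 1 read per position and strand allows over the shortest peak length of each table, 224 and 218 bp, and whether pileups near them were capped was not tested. Of the 6 peaks within 10% of this ceiling in each table, 4 were members, all on chromosome 1. The highest was chr1:125176861-125183234, which was also the longest member at 6374 bp. It had a pileup of 443.31 over 120 control fragments in the vector library, and its APOC2 partner, of 6379 bp, had 436 over 113. It lay 0.972 kb before the empty stretch, and its fold enrichment was 3.67 and 4.597. The other 3, named after their values had been seen, lay on the far side: chr1:143201133-143202922 with 431.44 fragments in the vector library, chr1:143231223-143234440 with 423.52, and chr1:143212197-143216016 with 418.57. The APOC2 peaks there had 410, 403 and 401 fragments.

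By fold enrichment the leading member was chr16:36853295-36853968, on the near side of chromosome 16. It had 228.58 fragments over 1.00 control fragment in the vector library and 209 fragments over 1.00 in the APOC2 library, with summits at the same base. Its fold enrichment was 114.8 and 114.6. The next on that chromosome, chr16:36975217-36976139 and chr16:37335784-37336252, had fold enrichments of 50.04 and 49.05 in the vector library and 37.1 and 42.0 with APOC2. On chromosome 1 the leading pairs were chr1:122842572-122842948, with 106.87 fragments in the vector library and 80 with APOC2, chr1:123101213-123101773, with 70.26 and 60, and chr1:124686306-124686774, with 64.32 and 49. All 3 stood over at most 2 control fragments in both tables. On chromosome 9 the leading pair was chr9:60636422-60637283, with 46.51 and 33 fragments and a fold enrichment of 23.8 and 18.8. It was followed by chr9:43776261-43776562, with 35.62 and 22 fragments, and chr9:45341128-45341456, with 34.63 and 24. At all 9 of these leading pairs the listed pileup and the fold enrichment were lower in the APOC2 library. Since they were ranked by their vector values, that direction carries no weight.

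Members made up 11.1% of the vector and 6.26% of the APOC2 table, and a larger share of the top ranks. Among the 100 peaks of highest fold enrichment, 18 of the vector and 19 of the APOC2 table were members. Among the 100 of highest pileup, 29 and 28 were. Of the peaks at least 1 kb long, 27 of 96 vector peaks (28.1%) and 26 of 175 APOC2 peaks (14.9%) were members. The longest on chromosome 9 was chr9:60622544-60626475, 3932 bp in the vector library and 4386 bp in the APOC2 library, with a pileup of 32.7 and 25. The longest on chromosome 16 was chr16:46389704-46391348, 1645 and 1735 bp, with a pileup of 188 and 192 over 80 and 76 control fragments.

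The number of peaks in the blocks was 1.26 times as high in the APOC2 as in the vector library (1.11 to 1.43). It was 1.24 (1.05 to 1.46) on chromosome 1, 1.32 (1.04 to 1.67) on chromosome 9 and 1.23 (0.889 to 1.71) on chromosome 16. The covered length grew less, from 205 to 245 kb. In the other gene-free intervals the ratio was 1.27 (1.20 to 1.35), and among the remaining peaks it was 3.67 (3.47 to 3.88). The gain was thus as small in the blocks as in other gene-free ground. Over the 3 near sides the ratio was 1.28 (1.12 to 1.47), and on the far side of chromosome 9 it was 1.30 (0.848 to 1.99). The far sides of chromosomes 1 and 16 had equal numbers, with intervals of 0.633 to 1.58 and 0.340 to 2.94 that hold the ratio of the near sides. The ratio stayed above 1 at stricter thresholds. It was 1.24 (1.10 to 1.41) at a q-value of at most 0.001 and 1.16 (1.02 to 1.33) at a fold enrichment of at least 5. Among equal numbers of top-ranked peaks by fold enrichment, a limit that removed APOC2 peaks only, it was 0.890 (0.777 to 1.019). That interval holds 1.

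Sharing required an overlap of at least 1 bp with any peak in the table of the other condition. Of the vector members, 372 of 444 (83.8%, 80.1 to 86.9%) were shared, against 83.6% of all vector peaks. Of the APOC2 members, 366 of 559 (65.5%, 61.4 to 69.3%) were shared, against 37.3% of all APOC2 peaks. The vector share was thus that of the whole table, while the APOC2 share was well above it. Most shared members had 1 partner, so the APOC2 share largely follows from the vector share and the ratio of peak numbers. That ratio was 1.26 in the blocks and 2.22 over all peaks, so the APOC2 share is not a separate result. Vector peaks of the other gene-free intervals were shared in 76.6% of cases (74.7 to 78.4%), and APOC2 peaks there in 60.2% (58.3 to 62.1%). Among the remaining peaks these shares were 92.2% (90.7 to 93.4%) and 24.7% (23.7 to 25.9%).

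Pooled over the blocks, sharing was higher within 100 kb of the empty stretches than beyond, though not on each side. All 85 vector members within 100 kb of a stretch had a partner (95.7 to 100%), as did 82 of 98 APOC2 members (83.7%, 75.1 to 89.7%). Beyond 100 kb, 287 of 359 vector members (79.9%, 75.5 to 83.8%) and 284 of 461 APOC2 members (61.6%, 57.1 to 65.9%) had one. On the near sides of chromosomes 1 and 16, the APOC2 shares were 77.8% and 85.7% within 100 kb and 63.6% and 66.7% beyond. On the far side of chromosome 9 they were 76.3% within and 80% beyond, and on its near side 1 of 2 and 51.8%. Among the 6 sides, the lowest shares were on the near side of chromosome 9, with 58 of 84 vector peaks (69.0%, 58.5 to 77.9%) and 58 of 112 APOC2 peaks (51.8%, 42.6 to 60.8%). That side also had the lowest median pileups. On the far side of chromosome 1 all 36 vector peaks (90.4 to 100%) and 34 of 36 APOC2 peaks (94.4%, 81.9 to 98.5%) were shared. Peaks covered 54.4% (vector) and 55.5% (APOC2) of the span there, against 2.23% and 2.81% on its near side. With so much ground covered, an overlap of 1 bp is hard to avoid, so these high shares carry little weight. The pooled shares within 100 kb include these peaks. How much sharing placement alone would give was not tested.

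**Figure D3:**
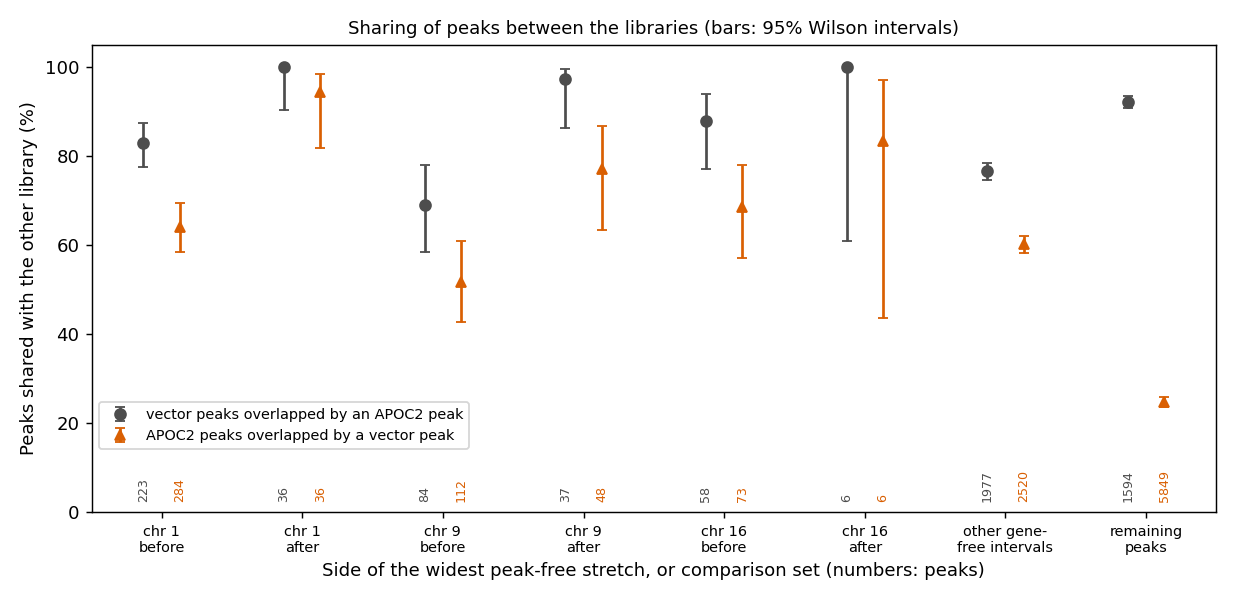
Percent of peaks that overlap a peak of the other library, with 95% Wilson intervals, for vector (circles) and APOC2 peaks (triangles) on each side of the 3 blocks, in the other gene-free intervals and among the remaining peaks; the small numbers give the peaks in each set. The near side of chromosome 9 is lowest among the 6 sides, at 69.0% and 51.8%, and the remaining APOC2 peaks fall to 24.7%.

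Members without a partner were in the median shorter and weaker. The 72 such vector members had a median pileup of 14.8 (13.9 to 14.8), a median fold enrichment of 7.44 and a median length of 236.5 bp (232 to 263). The 372 shared ones had 21.8 (19.8 to 23.8), 9.41 and 330.5 bp (315 to 353). The 193 APOC2 members without a partner had a median pileup of 11, a median fold enrichment of 6.08 and a median length of 244 bp (234 to 258), against 18 (17 to 20), 8.85 and 345 bp (325 to 375) for the 366 shared ones. The same order held in the other gene-free intervals, where APOC2 peaks without a partner had a median pileup of 11 and shared ones 15 (15 to 16). No vector member without a partner had a pileup above 26.7. The APOC2 library had an exception, named after its value had been seen: chr16:46386295-46386582, on the far side, had 119 fragments over 59 control fragments and a fold enrichment of 2.39. The longest unshared APOC2 member, chr1:143258807-143259428, had 622 bp, and the longest unshared vector member had 555 bp.

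The strongest unshared members by fold enrichment were still modest. In the vector library they were chr1:124402506-124402772 with 19.8 fragments and a fold enrichment of 10.4, chr9:43713530-43713851 with 20.8 fragments and 10.9, and chr16:37972729-37972991 with 16.8 fragments and 8.92. In the APOC2 library they were chr1:124282859-124283183 with 20 fragments and a fold enrichment of 11.6, chr9:45049609-45050058 with 15 fragments and 8.85, and chr16:37628478-37628724 with 14 fragments and 8.30. All 6 had a background of at most 1 control fragment and lay more than 100 kb from the empty stretch. The first peaks of chromosome 16 were unshared in both libraries: chr16:36118432-36118728 in the vector and chr16:36091017-36091351 in the APOC2 library, with 11.9 and 10 fragments. On chromosome 9 the last peaks were unshared, chr9:60684177-60684410 with 13.9 fragments in the vector and chr9:60680856-60681099 with 15 in the APOC2 library. The first and last peaks on chromosome 1, the first on chromosome 9 and the last on chromosome 16 were shared in both libraries.

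For shared positions, overlapping peaks were paired by longest overlap, each used once, which gave 363 pairs in the blocks: 214 on chromosome 1, 94 on chromosome 9 and 55 on chromosome 16. At most pairs the summits lay close together, though overlap by itself limits the distance. The summits were a median of 28 bp apart, 254 of the 363 (70.0%) were within 50 bp, and the largest distance was 1538 bp. On chromosome 9, 45 of 94 pairs (47.9%) had summits within 50 bp. The median distance was 19 bp on chromosome 1, 57 bp on chromosome 9 and 31 bp on chromosome 16, and over all 3300 pairs of the tables it was 33 bp.

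Enrichment at the pairs was near equal in the libraries. For fold enrichment, the log2 ratio of APOC2 to vector had a median of -0.09 (-0.12 to -0.04), and 153 of 363 pairs were above 0. With depth-scaled pileup the median was 0.017 (-0.020 to 0.057), and 186 pairs were above 0. Without the 1 that fold enrichment adds to pileup and background, the median was 0.039 (-0.007 to 0.085), and 200 pairs were above 0. The sign of the median therefore depended on the measure, and only the interval for fold enrichment left out 0. In the other gene-free intervals, with 1504 pairs, the medians were -0.17 (-0.20 to -0.15) and -0.07 (-0.10 to -0.04). Among the 1433 remaining pairs they were 0.44 (0.41 to 0.47) and 0.49 (0.47 to 0.52).

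Changes of at least 1.5-fold were few. By fold enrichment, 12 pairs (3.31%) were higher with APOC2, against 17.6% of all pairs, and 36 (9.92%) were lower, against 7.97% of all pairs. By depth-scaled pileup, 17 pairs (4.68%) were higher, against 20.2% of all pairs, and 20 (5.51%) were lower, against 5.21%. Without the added 1, 30 pairs (8.26%) were higher, against 22.3% of all pairs, and 25 (6.89%) were lower, against 6.27%. The excess of lower over higher pairs by fold enrichment thus did not hold without the added 1. In the other gene-free intervals the shares were similarly low for higher pairs, 2.53% by fold enrichment and 4.19% by depth-scaled pileup, and 13.4% and 9.11% of pairs were lower. Among the remaining pairs 37.1% and 40.8% were higher, so the low share of higher pairs was not particular to the blocks.

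The ratios differed with the background under the vector peak. At the 258 pairs over at most 1 control fragment, the median log2 ratio was -0.12 (-0.20 to -0.09) for fold enrichment and -0.010 (-0.068 to 0.022) for depth-scaled pileup. At the 74 pairs over more than 1 and up to 10, it was -0.008 (-0.14 to 0.11) and -0.04 (-0.13 to 0.10). At the 31 pairs over more than 10, all within 100 kb of an empty stretch, it was 0.20 (0.14 to 0.27) with 30 of 31 above 0, and 0.20 (0.15 to 0.24) with 29 of 31 above 0. A pair with both pileups at the ceiling would get a depth-scaled log2 ratio of 0.24 from the scaling alone. Among the 15 of these pairs with both pileups under 50% of the ceiling, the median was 0.14 (0.09 to 0.30) for fold enrichment and 0.20 (0.09 to 0.28) for depth-scaled pileup. Elsewhere, pairs over more than 10 control fragments had medians of 0.21 and 0.11 in the other gene-free intervals (42 pairs) and 0.41 and 0.37 among the remaining peaks (93 pairs).

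**Figure D4:**
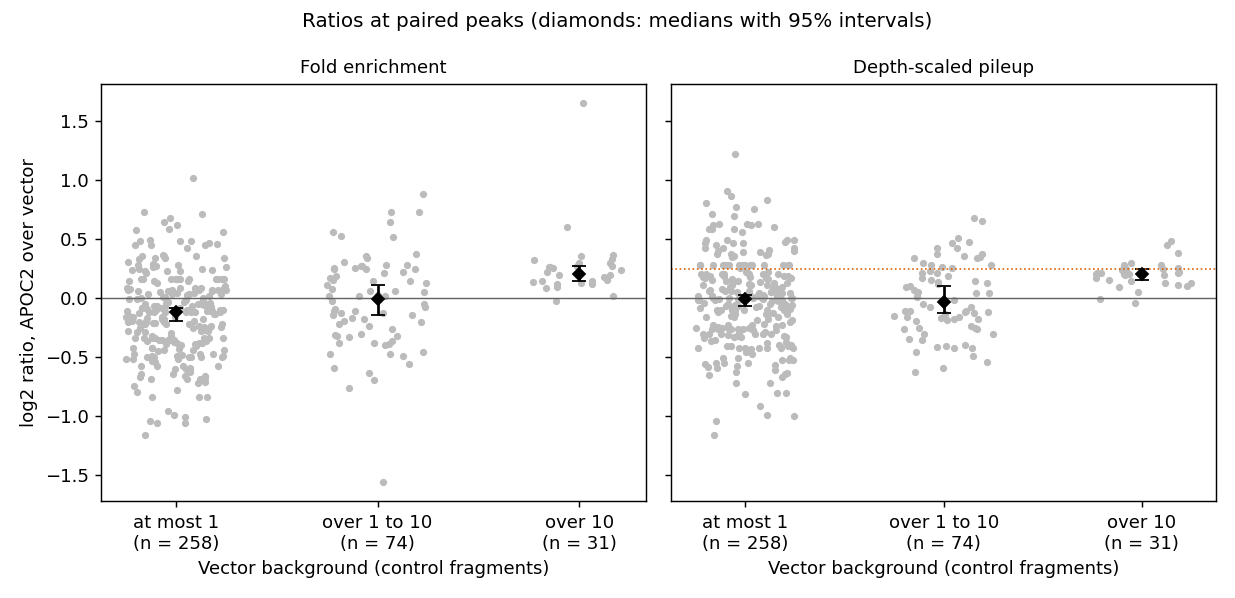
Log2 ratio, APOC2 over vector, of fold enrichment (left) and depth-scaled pileup (right) at the 363 pairs, by background under the vector peak; diamonds with bars are medians with 95% order-statistic intervals, the solid line marks 0 and the dotted line the ratio of 2 pileups at the ceiling (0.24). The 31 pairs over more than 10 control fragments sit higher, with medians of 0.20, than the 258 pairs over at most 1, with medians of -0.12 and -0.010.

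The control differed little between the tables at these positions. At the 62 pairs with summits within 50 bp and a vector background above 2 control fragments, the ratio of control fragments, APOC2 table over vector table, had a median of 1.00. It was equal within 0.05 fragments at 27 of them and within 10% at 48. The control library of each table was not given in the sources used here.

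The largest and the smallest ratio on chromosome 1 came from pairs whose summits lay far apart. At chr1:143244900-143246023 the log2 ratio of fold enrichment was 1.65, with 59.37 fragments over 15.0 control fragments in the vector library and 69 over 5.89 in the APOC2 library, and summits 409 bp apart. Its depth-scaled log2 ratio was 0.48. At chr1:143206037-143207295 the log2 ratio of fold enrichment was -1.56, with 65.31 fragments over 3.65 in the vector library and 56 over 13 in the APOC2 library, and summits 603 bp apart. Its depth-scaled log2 ratio was 0.04. In both, the background differed more between the libraries than the pileup did.

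On chromosomes 9 and 16 the extreme pairs were small peaks. The highest ratio on chromosome 9 was at chr9:44727278-44727509, with 18.8 and 21 fragments and a log2 ratio of fold enrichment of 0.88. The lowest was at chr9:44376971-44377290, with 18.8 and 7 fragments and a log2 ratio of -1.16. On chromosome 16 they were at chr16:37711529-37711850, with 15.8 and 15 fragments and a log2 ratio of 0.64, and at chr16:36792947-36793249, with 21.8 and 11 fragments and a log2 ratio of -0.78. For all 4, the exact 95% counting interval of the depth-scaled ratio held 1; at the lowest of chromosome 9, it ran from 0.159 to 1.11.

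Most of the ratios in the blocks lay within counting error. Of the 363 exact 95% counting intervals for the depth-scaled ratio, 355 held 1, 7 lay above it and 1 lay below it, with no adjustment for their number. They were made for pairs in the blocks only, so no share over all pairs can be set beside these counts. Whether the blocks differ from other pairs in this was not tested. The pair below 1, named after its value had been seen, was chr1:123953342-123953621, with 38.59 fragments in the vector library and 17 with APOC2 and a ratio of 0.529 (0.281 to 0.958). Of the 7 above 1, 6 lay within 100 kb of an empty stretch, a zone with 79 of the 363 pairs. The exception was chr1:124026259-124026482, with 10.88 and 21 fragments and a ratio of 2.32 (1.07 to 5.32). Pileups were higher in that zone, and higher counts give narrower intervals, which leave 1 more easily. The intervals of ratios, shares and medians cover counting error only, because peaks are not replicates of a condition. Fragments carried no molecular identifiers, and the handling of duplicate reads is not given in the sources used here. The highest pileups equal what 1 read per position and strand allows. Whether fragments are copies of each other, or high counts were capped, was not tested.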

How the data were processed

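PHF8 ChIP-seq was measured in 1 vector and 1 APOC2 library, grouped by the treatment in the labels. Per the submitters' processing notes, Bowtie2 2.2.9, MACS2 2.0 and HOMER were used with build hg38; their order and roles, the control library, the thresholds and the handling of reads that match many places are not given in the sources used here. Per the file headers, the deposited tables hold the pileup signal at each summit and its fold enrichment over background. In addition, a pair of deposited columns without a name holds -log10 of the p-value and of the q-value, as judged from the values; among members the highest q-value was 0.0137 for the vector library and 0.0405 for the APOC2 library. Peaks were called per sample. Read totals were not given, so absolute depth is unknown.

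Members and lists were chosen with earlier results of these data known. Background was (pileup + 1) / fold enrichment - 1. Multiples of the steps were accepted within 0.02, as were backgrounds at the limits of 1, 2 and 10 control fragments, and the APOC2 step, on which 66.1% of backgrounds above 1.5 lay, was searched for between 0.7 and 1.01. Gene-free intervals were stretches of at least 1 Mb between neighbouring RefSeq genes (32 in all). Overlaps were counted with bedtools 2.31.1 and with Python 3.11.15 code that gave the same numbers. Shares carry Wilson, medians order-statistic and single ratios exact Clopper-Pearson intervals at 95%. No test between conditions was possible with 1 library in each. The pairing, the step search and the coverage of the median interval were tested on simulated data. Simulated peaks lay too far apart to have more than 1 partner, unlike 3 vector and 9 APOC2 members.

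Peaks were named by rule: in each block, the 3 pairs of highest vector fold enrichment, the pairs of largest and smallest ratio, and for each library the unshared peak of highest fold enrichment, the longest, the first and the last. Alternatives were stricter thresholds (q-value of at most 0.001, fold enrichment of at least 5, equal numbers of top-ranked peaks), wider blocks, merging, other overlaps and pairings, other measures of the ratio and bins of 500 kb. Leaving out peaks near the empty stretches was chosen after seeing the data. The planned description of peak sequences was not run because no genome was used here.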

Additional observations from a re-analysis of the deposited data

How the results depend on the processing

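Of 225 values recomputed under another setting, 172 moved by less than their counting interval or, for counts, by less than 1.5 times, 45 moved by more and 8 changed sign. Another 5 sign changes, at 3 named pairs, lay within the counting interval of the pair and are among the 172. The median log2 ratio at all pairs, -0.09 by fold enrichment, was 0.017 by depth-scaled pileup and 0.039 without the added 1; on chromosome 1 it was 0.017 and 0.040, on chromosome 16 0.010 and 0.039, and on chromosome 9 0.029 without the added 1, while the pair at chr1:143206037 went from -1.56 to 0.043 by depth-scaled pileup, which leaves out the background. With pileup as listed the median at all pairs was -0.25, with 3 pairs higher and 68 lower; without the added 1, 30 pairs were higher, and by depth-scaled pileup 20 were lower. By construction these measures differ in depth scaling, in the added 1 and in whether they hold the background.

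When the APOC2 table was cut by rank to the number of vector peaks, the ratio of peak numbers was 0.890 and the APOC2 share in the blocks 9.84%. Sharing was then 68.9% of vector and 75.9% of APOC2 members, and lower pairs were 19. Among peaks with a fold enrichment of 5 or more, shares in the blocks were 13.1% and 8.14%, vector sharing 79.5% and the APOC2 median fold enrichment 7.81. Sharing was 76.6% and 60.8% with an overlap of 50% of both peaks, and 71.4% of APOC2 members when a distance of up to 1 kb sufficed. The cause was not tested for these. Without members within 100 kb of an empty stretch, which leaves fewer peaks, the shares in the blocks were 9.13% and 5.22%, vector sharing 79.9%, median lengths 296 and 280 bp, the APOC2 median pileup 13, and the share over at most 1 control fragment 86.4% and 86.6%. A q-value of at most 0.001, wider blocks, merging within 1 kb, pairing by summit and 500 kb bins moved none of the main values. No paired analysis was possible because each condition had 1 library, and for the same reason no library could be left out in turn. Pileups near 10 fragments limit what single pairs can show.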
